A study of Sus scrofa with 18 samples.

Results

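The heme oxygenases and heme breakdown genes were described here through 3 genes, HMOX1, HMOX2 and BLVRA, in kidneys of pigs before and after transplantation. Members were the probe sets whose single gene symbol in the array annotation is 1 of these names, a rule that uses no measured value. Each gene had 1 probe set, so the members were 3 of the 23999 probe sets tested and 3 of the 6765 genes that could be named. The array annotation gives them the NCBI gene numbers 445512 (HMOX1), 396622 (HMOX2) and 100515289 (BLVRA). The name of the HMOX1 probe set ends in s_at, which marks probes that can match more than 1 transcript, and the annotation names HMOX1 alone for it.

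Heme oxygenase opens the heme ring and releases iron, carbon monoxide (CO) and biliverdin, and biliverdin reductase then turns biliverdin into bilirubin, an antioxidant. HMOX1 is the inducible enzyme, switched on by heme, oxidants, cytokines and low oxygen, and in the kidney it is known as a protective gene of tubule cells and macrophages in ischemic and heme-driven injury. HMOX2 is the constitutive enzyme, made in most cells at a steady rate. BLVRA encodes biliverdin reductase A. The CO given in this study is thus also a product of the enzymes that HMOX1 and HMOX2 encode.

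Total RNA of 18 kidneys was measured on an Affymetrix pig array, with 1 array for each kidney. The groups were naive kidneys that were not transplanted (n = 2) and transplanted kidneys, either untreated or treated with CO, at 4 h or 24 h (n = 4 in each of these groups). Donors 1 to 4 each gave an untreated and a CO kidney at 4 h, and donors 5 to 8 did so at 24 h. All transplanted kidneys share the transplantation itself, and the treatment field of the labels reads air for every one of them, CO kidneys included. The grouping followed the source and title, which name CO. Strain, age, the length of ischemia, the CO dose and whether donor, graft or recipient received the gas are not given in the sources used here. Naive kidneys carry no donor number, so comparisons with them were treated as between animals, and their p-values rest on 2 naive arrays.

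Levels are the deposited log2 values, normalised between arrays with RMA, so that a step of 1 stands for a doubling. All 3 genes lay well above background. The lowest member value on any array was 4.33, while the 17 empty tag control probe sets had a median of 1.09 and a highest value of 1.83. The mean HMOX1 level lay at the 88th percentile of all probe sets, HMOX2 at the 90.4th and BLVRA at the 73.8th. Array medians ran from 3.75 to 3.94. The labelled tissue was borne out by LRP2 (megalin, a receptor of proximal tubule cells), at 10.14 in naive kidney, and by MIOX (an inositol oxygenase of proximal tubule), at 11.5. Likeness to naive kidney over all probe sets was checked in the untreated 4 h group alone, where 1 array stood apart. The untreated 4 h kidney of donor 1 correlated at 0.982 on average with naive kidney and at 0.956 with its own group. The other 3 arrays of that group had 0.939 to 0.957 and 0.966 to 0.972. Array weights, fitted as an alternative, were 0.376 for this donor 1 array and 0.279 for the untreated 24 h array of donor 8. Main results that rest on the untreated array of donor 1 are given with and without it. Because whole tissue was measured, a lower level can reflect fewer cells of a type or less RNA per cell, and these cannot be told apart.

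**Figure D1:**
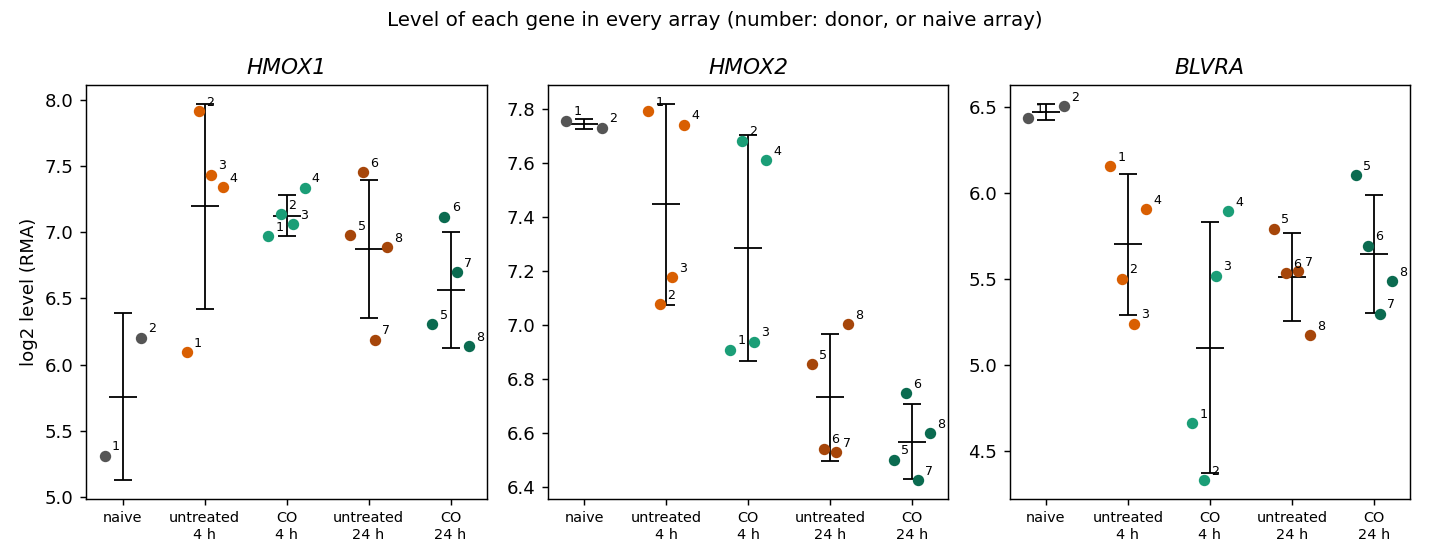
Log2 level (RMA) of HMOX1, HMOX2 and BLVRA on each of the 18 arrays, by group, with the donor or naive array number beside each point. Horizontal lines are group means and bars are the SD. By group mean, HMOX1 is lowest in naive kidney and HMOX2 in both 24 h groups, and every transplanted kidney lies below both naive kidneys for BLVRA. The vertical axes differ between the 3 plots and do not start at 0.

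HMOX1, the inducible oxygenase, was higher on average in all 4 transplanted groups than in naive kidney, and the rise passed the test in the CO kidneys at 4 h. Naive kidneys had 5.32 and 6.21. Untreated kidneys at 4 h had 6.10 for donor 1, 7.91 for donor 2, 7.43 for donor 3 and 7.34 for donor 4, and only donor 1 lay within the naive range. CO kidneys at 4 h had 6.97, 7.13, 7.06 and 7.34 in donor order, all above both naive kidneys and close together.
At 24 h the untreated kidneys of donors 5 to 8 had 6.98, 7.45, 6.19 and 6.89, with donor 7 within the naive range. CO kidneys at 24 h had 6.30, 7.12, 6.70 and 6.14, with donor 8 within it.

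The group means for HMOX1 were 5.76 ± 0.63 (SD, n = 2) in naive kidney, 7.19 ± 0.77 (n = 4) in untreated and 7.12 ± 0.16 (n = 4) in CO kidneys at 4 h. At 24 h they were 6.88 ± 0.52 (n = 4) and 6.56 ± 0.44 (n = 4). The order of levels was therefore untreated 4 h, CO 4 h, untreated 24 h, CO 24 h and naive, and no transplanted group differed from its neighbour in that order beyond the spread.

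Against naive kidney, HMOX1 was 1.43 ± 0.42 (SE) log2 higher in untreated kidneys at 4 h, which is 2.70-fold (95% interval of the log2 difference 0.55 to 2.32, limma adjusted p = 0.0766), and did not pass. In CO kidneys at 4 h it rose by 1.36 ± 0.42 log2, or 2.57-fold (0.48 to 2.25, limma adjusted p = 0.0417). The 24 h groups, at 1.12 ± 0.42 for untreated (2.17-fold, limma adjusted p = 0.0877) and 0.80 ± 0.42 for CO kidneys (1.75-fold, limma adjusted p = 0.245), did not pass. These 4 comparisons share the same naive arrays. The size of the change was nearly equal with and without CO at 4 h, and the side of the threshold was set by the number of probe sets called in each comparison, since the adjustment runs over all of them.
Among all probe sets, 1.5% were called in the untreated 4 h comparison with naive, 13.6% in CO 4 h, 14.6% in untreated 24 h and 11.7% in CO 24 h. The first of these rests on the untreated array of donor 1: without it, 13.9% were called in the untreated 4 h comparison and 17.3% in CO 4 h. HMOX1 was called in 1 of the 4, and its change lay at percentile 98.1, 96.7, 94.6 and 91.2 of all changes in that order. Without the donor 1 untreated array, the untreated 4 h change was 1.80 log2 and passed (limma adjusted p = 0.00302). The call in CO kidneys was lost when either naive array was left out (limma adjusted p = 0.368 and 0.103), without any 1 of the 4 CO arrays of that time (0.0583 to 0.0747), and without the untreated array of donor 5 (0.0517) or the CO array of donor 7 (0.0521). Array file names fall into sets that share a date, and CO kidneys at 4 h were 1.81 log2 above naive in the first set (3 against 1 array) and 0.93 in the second (1 against 1).

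**Figure D2:**
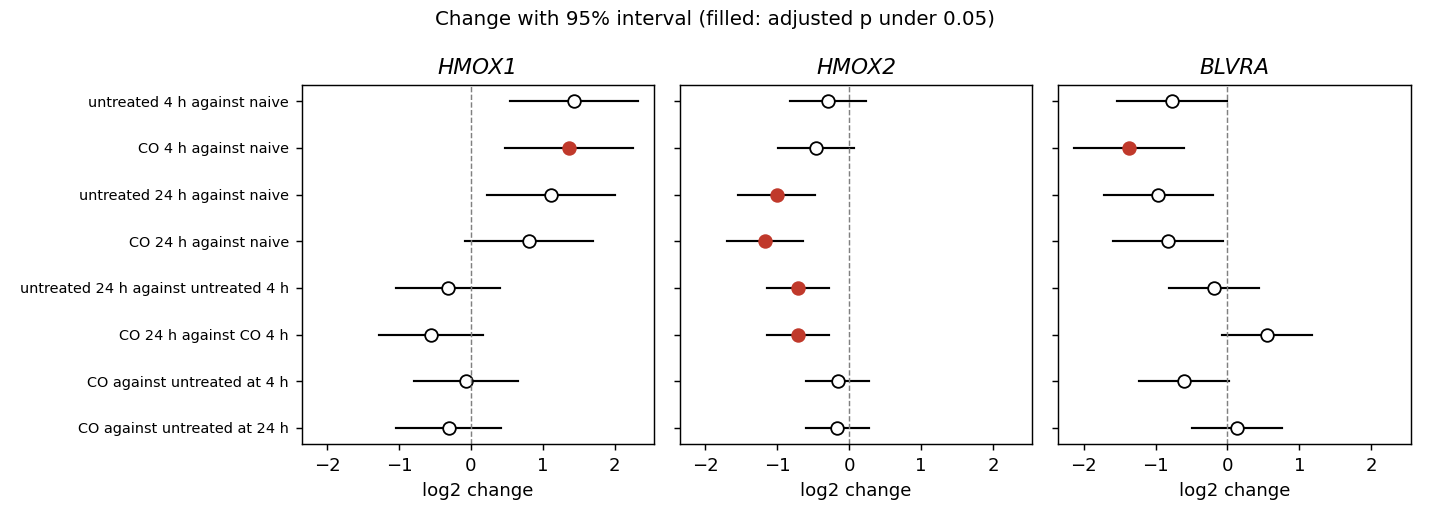
Log2 change of each gene in each comparison, with its 95% interval from limma; filled points passed an adjusted p under 0.05. HMOX1 passed in CO 4 h against naive, HMOX2 in both 24 h groups against naive and against 4 h, and BLVRA in CO 4 h against naive. No comparison of CO with untreated kidneys passed.

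HMOX2, the constitutive oxygenase, moved the other way, and against naive kidney its fall passed at 24 h alone. Its level was close to naive in some 4 h kidneys and lower than naive in every 24 h kidney. Naive kidneys had 7.76 and 7.73. Untreated kidneys at 4 h had 7.79, 7.08, 7.18 and 7.74 for donors 1 to 4, so that donors 1 and 4 stayed at the naive level and donors 2 and 3 did not. CO kidneys at 4 h had 6.91, 7.68, 6.94 and 7.61, with donors 2 and 4 near naive and donors 1 and 3 lower.
All 24 h kidneys fell below the lower naive value, untreated kidneys with 6.86, 6.54, 6.53 and 7.00 for donors 5 to 8, and CO kidneys with 6.50, 6.75, 6.43 and 6.60. The 4 untreated 24 h kidneys also lay below all 4 untreated 4 h kidneys, and the same held for the CO groups.

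Mean HMOX2 levels were 7.74 ± 0.02 (SD, n = 2) in naive kidney, 7.45 ± 0.37 (n = 4) and 7.29 ± 0.42 (n = 4) in untreated and CO kidneys at 4 h, and 6.73 ± 0.24 (n = 4) and 6.57 ± 0.14 (n = 4) at 24 h. Untreated kidneys at 4 h overlapped naive kidneys, while all 4 CO kidneys at 4 h lay below both naive kidneys. The 24 h groups overlapped each other.
HMOX2 fell by 1.01 ± 0.25 log2 in untreated kidneys at 24 h against naive, 2.01-fold lower (95% interval -1.54 to -0.48, limma adjusted p = 0.0133). In CO kidneys at 24 h it fell by 1.17 ± 0.25 log2, 2.26-fold lower (-1.70 to -0.64, limma adjusted p = 0.00749). At 4 h the differences of -0.30 ± 0.25 (limma adjusted p = 0.559) and, with CO, -0.46 ± 0.25 (limma adjusted p = 0.251) did not pass, nor did the untreated 4 h value without donor 1 (-0.41, 0.337). HMOX2 was thus called in 2 of the 4 comparisons with naive. Both calls were lost without naive array 1 or 2, with limma adjusted p of 0.114 and 0.0885 untreated and of 0.0891 and 0.0641 with CO.

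The step between the times compares transplanted groups only, so no naive level enters the difference. The naive arrays still enter the shared fit, and with it the SE and p. From 4 h to 24 h HMOX2 fell by 0.71 ± 0.21 log2 in untreated kidneys (1.64-fold lower, limma adjusted p = 0.0363), where 9.72% of all probe sets were called. In CO kidneys it fell by 0.72 ± 0.21 log2 (1.64-fold lower, limma adjusted p = 0.0242), where 17.6% were called. In each series the groups did not overlap, with an exact two-sided permutation p of 0.0286, the smallest that 4 against 4 kidneys allow, and 13.2% and 20.9% of all probe sets were also without overlap. Kidneys of different donors were compared here, since each donor was used at 1 time. The untreated call was lost without donor 1, 4, 5, 6 or 7 (limma adjusted p from 0.0601 to 0.114) and the CO call without donor 2, 4, 5 or 7 (0.0583 to 0.0768). A fit of only the groups compared, which holds no naive array, also lost the untreated call (-0.71 log2).
The sets that share a file date are unevenly spread over the times. With that date as a block the HMOX2 changes kept their direction and lost the call, at -0.89 and -1.07 log2 against naive for untreated and CO kidneys at 24 h (limma adjusted p = 0.320 and 0.496) and at -0.60 and -0.62 between the times (0.802 and 0.711). In the 1 set that holds these groups, the untreated 24 h kidney of donor 5 was 0.87 log2 lower than naive array 2 and 0.22 log2 lower than the untreated 4 h kidney of donor 2.

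HMOX1 did not pass between the times. It differed by -0.32 ± 0.34 log2 from 4 h to 24 h in untreated kidneys (limma adjusted p = 0.652) and by -0.56 ± 0.34 in CO kidneys (limma adjusted p = 0.291). BLVRA, at -0.19 ± 0.30 and 0.54 ± 0.30, did not pass either (limma adjusted p = 0.774 and 0.227). HMOX2 was therefore the 1 member called in either time comparison.

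BLVRA, which makes bilirubin from the biliverdin that both oxygenases release, was lower than naive in all 16 transplanted kidneys. Naive kidneys had 6.44 and 6.51. Untreated kidneys at 4 h had 6.16, 5.50, 5.24 and 5.91 for donors 1 to 4, the highest again being donor 1. CO kidneys at 4 h had 4.66, 4.33, 5.52 and 5.89, and donors 1 and 2 gave the lowest values of the whole series.
Untreated kidneys at 24 h had 5.79, 5.53, 5.55 and 5.17 for donors 5 to 8. CO kidneys at 24 h had 6.10, 5.70, 5.30 and 5.49. The transplanted groups overlapped one another and none overlapped naive.

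Mean BLVRA levels were 6.47 ± 0.05 (SD, n = 2) in naive kidney, 5.70 ± 0.41 (n = 4) in untreated and 5.10 ± 0.73 (n = 4) in CO kidneys at 4 h. At 24 h they were 5.51 ± 0.25 (n = 4) and 5.65 ± 0.34 (n = 4). No neighbours among the transplanted groups differed beyond the spread.
BLVRA fell by 1.37 ± 0.36 log2 in CO kidneys at 4 h against naive, 2.58-fold lower (95% interval -2.13 to -0.60, limma adjusted p = 0.0229), which lay at percentile 1.71 of all changes. The other groups did not pass: -0.77 ± 0.36 log2 in untreated kidneys at 4 h (limma adjusted p = 0.239), -0.96 ± 0.36 in untreated at 24 h (0.0879) and -0.82 ± 0.36 in CO at 24 h (0.158). Without donor 1 the untreated 4 h value was -0.92 (0.117). With file date as a block the 24 h values shrank to -0.44 untreated and -0.23 with CO (limma adjusted p = 0.786 and 0.940).
The CO 4 h call was lost without naive array 1 or 2 (limma adjusted p = 0.126 and 0.156), without the CO kidney of donor 1 (0.0645), and when only the groups compared were fitted (0.0804). Within the first and second sets of file dates the difference was -1.08 and -2.17 log2.

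Separation from the 2 naive kidneys was common over the whole array. Groups did not overlap for 27.4% of all probe sets in untreated kidneys at 4 h, 37.6% in CO at 4 h, 39% in untreated at 24 h and 39.1% in CO at 24 h. Against that background BLVRA was without overlap in 4 of the 4 comparisons, HMOX2 in 3 and HMOX1 in 1. An exact permutation test of 4 against 2 kidneys cannot go below p = 0.133.

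The comparison of CO with untreated kidneys asks whether the gas shifted BLVRA or the oxygenase genes, whose enzymes make CO in the body. None of the 3 members passed at either time, and 0% of all probe sets did. By unadjusted limma p under 0.05 there were 787 probe sets at 4 h and 281 at 24 h, and none of the members was among them. HMOX1 differed by -0.07 ± 0.34 log2 at 4 h (95% interval -0.80 to 0.66, limma adjusted p = 0.999) and by -0.31 ± 0.34 at 24 h (-1.04 to 0.41, 1.00). HMOX2 differed by -0.16 ± 0.21 log2 at each time (-0.60 to 0.27 at both). BLVRA differed by -0.60 ± 0.30 log2 at 4 h (-1.22 to 0.02), the widest gap of the 3 at that time, and by 0.14 ± 0.30 at 24 h (-0.49 to 0.76). Without the untreated array of donor 1 the 4 h differences were -0.44 log2 for HMOX1, -0.047 for HMOX2 and -0.45 for BLVRA, none called. The groups overlapped for each gene at each time, and an exact permutation test of BLVRA at 4 h gave p = 0.257.
Every interval includes 0, which does not show that the levels were alike.

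**Figure D3:**
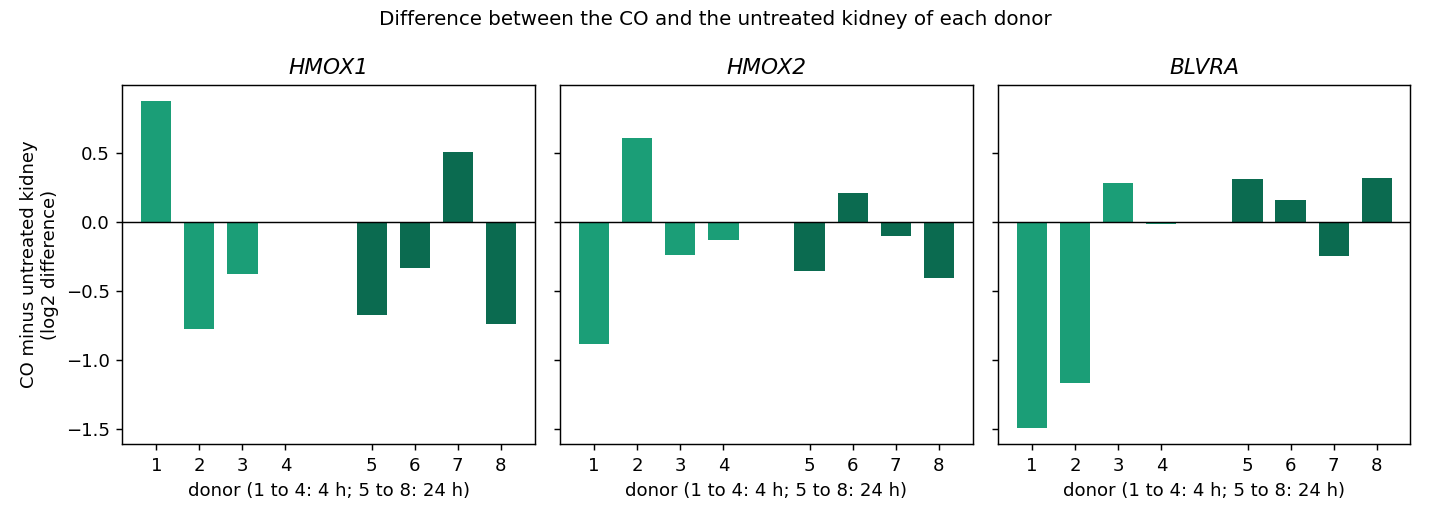
CO minus untreated kidney of the same donor (log2 difference of RMA values), donors 1 to 4 at 4 h and 5 to 8 at 24 h. For HMOX1 and HMOX2, 2 of 8 donors had the higher value in the CO kidney; for BLVRA, 4 of 8 did, and the lowest bars are those of donors 1 and 2.

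Within donors the sign varied. The CO kidney had more HMOX1 than its untreated partner in donor 1 (0.87 log2) and donor 7 (0.51) and less in donors 2 (-0.77), 3 (-0.38), 5 (-0.67), 6 (-0.34) and 8 (-0.74), with donor 4 level (-0.003). The HMOX2 differences were -0.88, 0.60, -0.24 and -0.13 for donors 1 to 4 and -0.35, 0.21, -0.10 and -0.40 for donors 5 to 8. For BLVRA they were -1.49, -1.17, 0.28 and -0.01, then 0.31, 0.16, -0.25 and 0.31.
The mean gap for BLVRA at 4 h came from donors 1 and 2. Over the 8 pairs the mean differences were -0.19 ± 0.61 log2 (SD) for HMOX1, -0.16 ± 0.44 for HMOX2 and -0.23 ± 0.71 for BLVRA. Exact sign-flip permutation p-values were 0.367, 0.336 and 0.461, each 0.461 after adjustment over the 3 genes. This test over pairs was added after the data were seen. Within the sets of file dates, CO minus untreated at 4 h was 0.17 and -0.77 log2 for HMOX1, -0.42 and 0.60 for HMOX2 and -0.41 and -1.17 for BLVRA, and in the 1 set with both groups at 24 h it was -0.46, -0.18 and 0.21.

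The change in the CO effect from 4 h to 24 h was tested as an interaction. It was -0.24 ± 0.48 log2 for HMOX1, -0.002 ± 0.29 for HMOX2 and 0.73 ± 0.42 for BLVRA, none of which passed (limma adjusted p of 0.996, 0.999 and 0.996). The call rate over all probe sets was 0%, with 612 at an unadjusted limma p under 0.05.

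Other genes of heme handling were taken from lists by role. Of the partners of heme breakdown, 4 were measured: POR (the reductase that passes electrons to heme oxygenase), ABCC2 (an exporter of conjugated bilirubin), CYCS and SLCO1A2. None passed in any comparison with naive kidney. SLCO1A2 averaged 1.04 to 1.18 in the 5 groups, below the highest tag control (1.83), so its values cannot show whether it changed. The partner with the smallest p was CYCS, a mitochondrial heme protein. It was 0.31 log2 above naive in untreated and 0.53 log2 in CO kidneys at 4 h, and 0.37 and 0.61 log2 at 24 h.

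The heme synthesis genes that passed against naive kidney fell, 1 of 6 in untreated kidneys at 24 h and 2 of 6 in CO kidneys at 4 h. Over all probe sets, 14.6% and 13.6% were called there. Among 6 measured genes, FECH, which places iron in the ring, changed by -0.68 log2 in untreated kidneys at 24 h (limma adjusted p = 0.0187) and by -0.61 in CO kidneys at 4 h (0.0351). ALAD, an early enzyme of the path, fell by 1.40 log2 in CO kidneys at 4 h (0.0107). No other list member passed in those 2 comparisons, and none passed in untreated kidneys at 4 h or CO kidneys at 24 h. Without the untreated array of donor 1, ALAD and FECH fell in untreated kidneys at 4 h as well. The list medians in the 4 comparisons with naive ran from -0.47 to -0.17 log2, while the median over all probe sets ran from -0.027 to 0.008 there.

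Scavenging and transport genes of heme and hemoglobin changed in both directions. CD163, the hemoglobin-haptoglobin receptor of macrophages, averaged 3.66 in naive kidney, 6.57 in untreated and 5.07 in CO kidneys at 4 h, and 6.87 and 6.60 at 24 h. It rose by 3.21 ± 0.73 log2 in untreated kidneys at 24 h (limma adjusted p = 0.00781) and by 2.95 ± 0.73 in CO kidneys at 24 h (0.0157), and was 2.91 ± 0.73 higher in untreated kidneys at 4 h without passing (0.0530); without donor 1 it rose by 3.22 log2 there (0.00949). In CO kidneys at 4 h the difference was 1.41 ± 0.73 (0.217).
SLC46A1, a heme and folate carrier, fell in 3 groups, with changes of -1.67 log2 in untreated kidneys at 24 h, -1.12 in CO kidneys at 4 h and -1.23 in CO kidneys at 24 h. LRP2, whose product takes up hemoglobin and many other filtered proteins, fell too, with -3.32, -1.73 and -2.29 log2 in the same order. Of the 9 genes measured, 1 rose and 4 fell in untreated kidneys at 24 h. In CO kidneys 0 rose and 3 fell at 4 h, and 2 rose and 3 fell at 24 h. The shares of all probe sets called in these comparisons were 14.6%, 13.6% and 11.7%. In untreated kidneys at 4 h none passed, although 5 had an unadjusted limma p under 0.05, and without donor 1 CD163 alone passed. There 1.5% of all probe sets were called, and 13.9% without donor 1.

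Of 12 measured iron genes, 0 passed in either 4 h group, 2 in untreated and 1 in CO kidneys at 24 h. At 24 h, 14.6% and 11.7% of all probe sets were called in these comparisons. The ferritin subunits FTH1 and FTL, which store the iron that heme oxygenase frees, averaged 12.2 and 12.8 in naive kidney, and neither passed in any comparison with it. TF, the iron carrier transferrin, fell, with -4.50 log2 in untreated kidneys at 24 h (limma adjusted p = 0.00729) and -3.80 in CO kidneys at 24 h (0.0227). NCOA4, the receptor that sends ferritin for breakdown, fell by 0.67 log2 in untreated kidneys at 24 h (0.0474). These were the 2 of 12 measured iron genes that passed in any comparison with naive kidney. Of the 54 calls against naive kidney of list genes named by rule, 42 were lost without 1 or the other naive array and 39 with file date as a block, and none of the settings run reversed one.

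**Figure D4:**
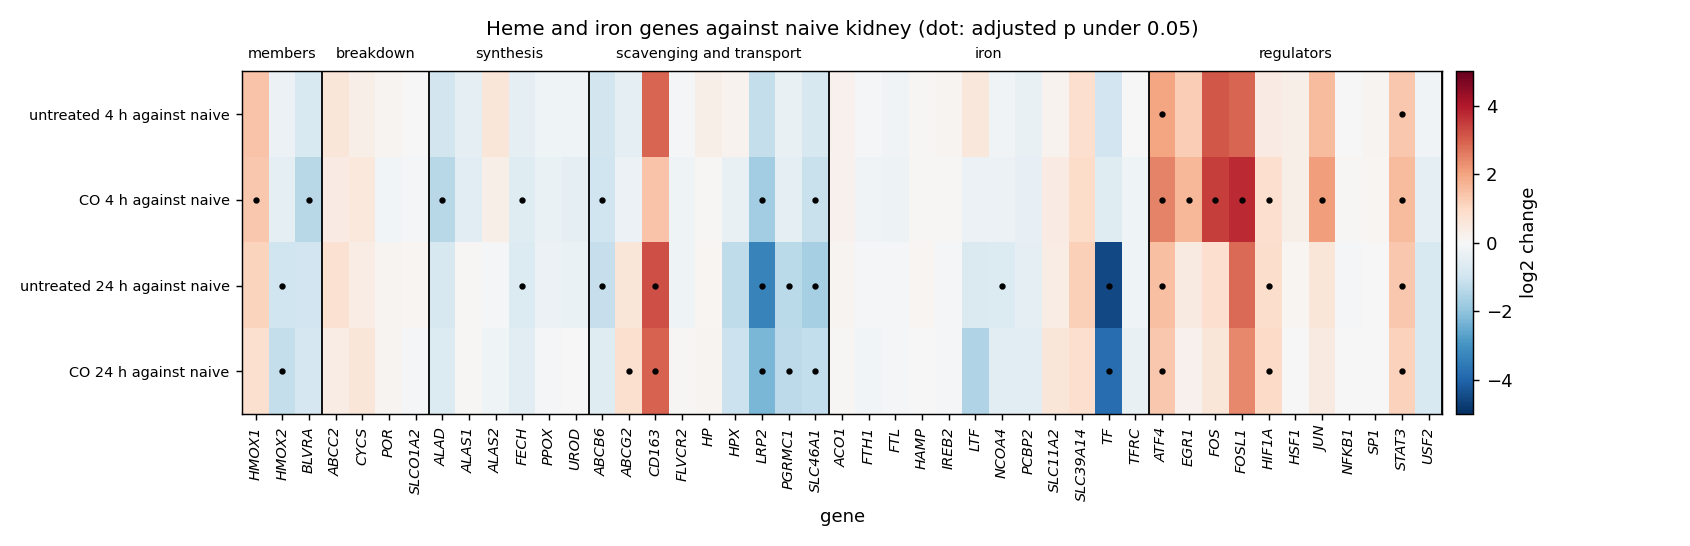
Log2 change against naive kidney of the 3 heme oxygenase and biliverdin reductase genes and of the measured heme, iron and HMOX1 regulator genes in the 4 transplanted groups, by colour, with a dot where the adjusted p is under 0.05. Of the genes drawn, CD163 has the highest rise at 24 h and TF the deepest fall there; FTH1 and FTL are near 0.

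Some known regulators of HMOX1 rose after transplantation. NRF2 itself and its partners KEAP1 and BACH1 were not analysed here. Of 11 measured factors, 2 rose in untreated kidneys at 4 h, 7 in CO kidneys at 4 h and 3 in each group at 24 h, and none fell. Over all probe sets, 1.5% and 13.6% were called at 4 h, and 14.6% untreated and 11.7% with CO at 24 h. The lower count in untreated kidneys at 4 h rests on the array of donor 1. Without it 6 factors rose there, where 13.9% of all probe sets were called, and 7 in CO kidneys at 4 h, where 17.3% were. ATF4, the stress-response factor, rose by 1.99 log2 in untreated and 2.50 in CO kidneys at 4 h, and by 1.50 and 1.34 at 24 h (limma adjusted p = 0.0359, 0.00473, 0.0247 and 0.0491). STAT3 rose by 1.35, 1.58, 1.36 and 1.16 log2 in the same order. HIF1A, the hypoxia factor, passed in CO kidneys at 4 h (0.83) and in both groups at 24 h (0.90 untreated, 0.94 CO).
FOS and FOSL1 (AP-1 subunits) rose by 3.45 and 3.71 log2 in CO kidneys at 4 h. In untreated kidneys at 4 h they were 3.09 and 2.91 log2 above naive without passing (limma adjusted p = 0.121 and 0.101), and without donor 1 they rose by 4.25 and 4.03 log2 (0.00128 and 0.000100). The difference between CO and untreated kidneys did not pass for any factor. The mean of the 11 factors over naive was 0.09 in the untreated 4 h kidney of donor 1, the array that resembles naive kidney, and 1.42 to 1.60 in the other 3 of that group. Among those 3, donor 2 had the lowest factor mean and the highest HMOX1, and a relation of HMOX1 to these factors was not tested.

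NRF2 targets and antioxidant enzymes, of which 24 were measured, changed both ways. At 24 h, 5 were higher and 5 lower in untreated kidneys, and 4 and 5 in CO kidneys. At 4 h it was 3 and 2 in CO kidneys, and 0 were called in untreated kidneys (4 higher without donor 1). The share of all probe sets called was 14.6%, 11.7%, 13.6% and 1.5% in that order, the last being 13.9% without donor 1. NQO1, a classic NRF2 target, rose by 2.82 log2 in untreated and 2.55 in CO kidneys at 24 h. TXNRD1, thioredoxin reductase, averaged 6.84 in naive kidney and was higher in every transplanted group. It averaged 8.70 in untreated and 9.47 in CO kidneys at 4 h, and 8.86 and 8.64 at 24 h. Its rise passed in CO kidneys at 4 h (2.63 log2), in untreated kidneys at 24 h and, without donor 1, in untreated kidneys at 4 h.

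Some cell type markers also differed between the groups. Macrophage and granulocyte markers (14 measured) had a mean over naive of 0.61 to 1.78 log2 in untreated and 0.12 to 0.44 in CO kidneys at 4 h. At 24 h it was 0.78 to 2.02 in untreated and 0.28 to 2.01 in CO kidneys. At 24 h, 5 of these markers rose in untreated and 3 in CO kidneys, where 14.6% and 11.7% of all probe sets were called. TYROBP rose by 3.02 and 2.47 log2 in that order. CCR1 rose as well; it averaged 1.80 in naive kidney, below the highest tag control, so its rise is a bound, at least 17.2-fold in untreated and 11.6-fold in CO kidneys, taken against the higher of that control and the array's own value. At 4 h no macrophage or granulocyte marker passed, and without donor 1 there were 5 in untreated and 2 in CO kidneys. The shares of all probe sets there were 1.5% untreated and 13.6% with CO, and 13.9% and 17.3% without donor 1. HMOX1 is also made by macrophages, and the part of these markers in its level was not tested. No marker passed for CO against untreated kidneys at 4 h, with 5 of 14 at an unadjusted limma p under 0.05 and a median of -0.87 log2 (8 of 14 and -0.999 without donor 1).

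At 24 h, 14.6% of all probe sets were called in untreated and 11.7% in CO kidneys. Of 15 measured proximal tubule markers, 14 fell in untreated and 12 in CO kidneys at that time. Their mean over naive was -0.99 to -0.28 log2 in untreated and -1.52 to -0.38 in CO kidneys at 4 h, then -3.71 to -2.44 and -2.83 to -1.57 at 24 h. HMOX2 was lower in the same 24 h groups. BLVRA was lowest in the CO kidneys of donors 1 and 2, which had the lowest tubule scores of the 4 h arrays (-1.44 and -1.52), and at 24 h, where the scores were lower still, it averaged 5.51 and 5.65. The part of the tubule markers in these results was not tested.
Of 9 endothelial markers, 1 rose in CO kidneys at 4 h (NOS3) and 1 in each 24 h group (PECAM1). Their list medians were 0.287 log2 in CO kidneys at 4 h, and 0.145 in untreated and 0.26 in CO kidneys at 24 h. Of 4 loop and distal nephron markers, EGF and SCNN1A fell in both 24 h groups. The array-wide call rate was 13.6% in CO kidneys at 4 h, and 14.6% in untreated and 11.7% in CO kidneys at 24 h.
No red cell marker passed, except HBM in untreated kidneys at 4 h when donor 1 was left out. HBB, the beta globin, averaged 5.67 to 6.13 in the 5 groups, EPOR, AHSP, KLF1 and HBM averaged 1.09 to 2.69. The distance between the 3' and 5' probe sets of GAPDH, a measure of RNA integrity, was 1.03 to 1.33 log2 in naive kidney, 0.91 to 1.54 at 4 h in untreated and 1.04 to 1.54 in CO kidneys, and 1.29 to 1.91 and 1.14 to 2.28 at 24 h, so the 24 h groups, in which HMOX2 fell, reached the highest values. Its part was not tested either.

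**Figure D5:**
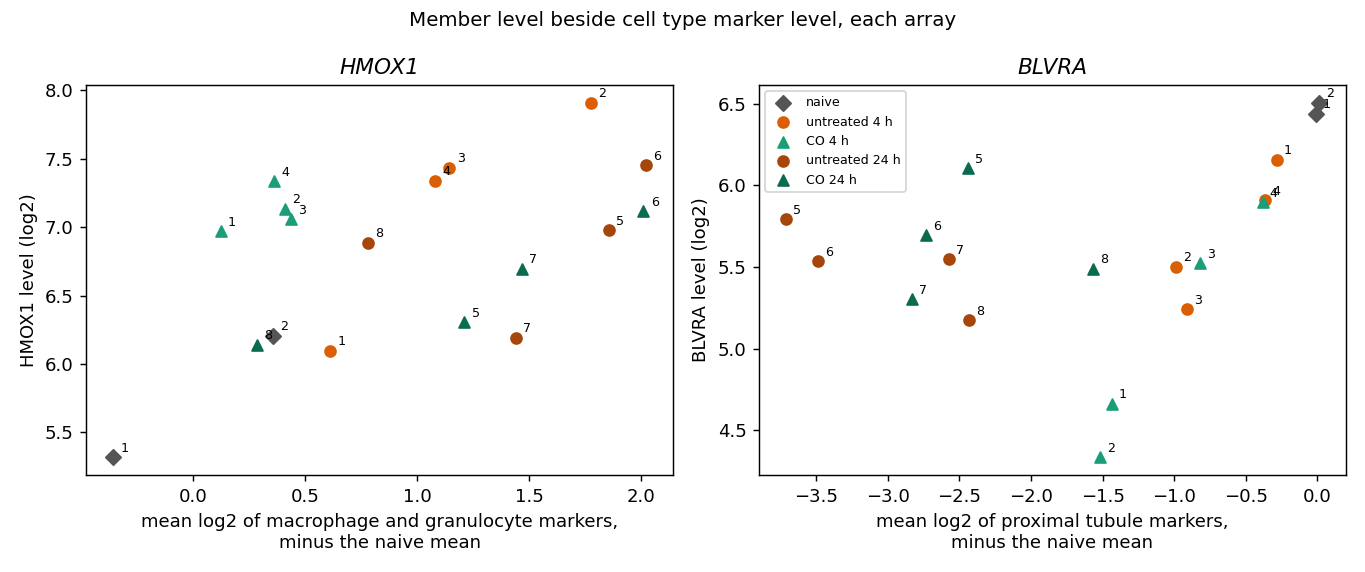
Level of a member gene on each array (log2, vertical) against the mean log2 level of a cell type marker list minus its naive mean (horizontal), coloured by group and numbered by donor. HMOX1 is set beside macrophage and granulocyte markers and BLVRA beside proximal tubule markers. The 24 h arrays lie at -3.71 to -1.57 on the tubule scale, and the lowest BLVRA values are at -1.44 and -1.52. The vertical axes do not start at 0.

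Across the 18 arrays, HMOX1 was most like RAB35 (Pearson r = 0.899), CDKN1A (0.894), SHC1 (0.885), CEBPB (0.872) and KLC1 (0.870). HMOX2 was most like UFSP1 (0.947), BCKDHA (0.946), CDIP1 (0.942), PNPLA2 (0.938) and NR1I2 (0.932). BLVRA was most like VPS11 (0.945), PDK3 (0.924), NUDT7 (0.919), GRHPR (0.911) and ATG4C (0.907). The arrays share group, donor and normalization, so these values describe likeness only. Within groups, as deviations from the group means, the likeness was 0.733 to 0.917 for these 15 genes.
Among the members the same within-group correlation was -0.191 for HMOX1 with HMOX2, -0.177 for HMOX1 with BLVRA and 0.194 for HMOX2 with BLVRA. Their residual SD within groups was 0.53 log2 for HMOX1, 0.30 for HMOX2 and 0.45 for BLVRA, against a median of 0.27 over all probe sets.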

How the data were processed

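The deposited values are log2 signals per probe set that the authors summarised and normalised with RMA, per the submitters' processing notes, whose version and settings are not given in the sources used here. No value was missing. The 24123 probe sets include 124 controls, which were dropped, and the remaining 23999 were tested without a filter on level. The platform annotation gives 10069 of them 1 symbol, 198 several and 13732 none, and 9961 matched a RefSeq pig gene.

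A linear model with a mean for each group was fitted to the 18 arrays (lmFit, then eBayes, of limma 3.58.1, R 4.3.3), with two-sided tests, with Benjamini-Hochberg adjustment over all probe sets and a threshold of 0.05. Errors after ± are SE unless SD is stated. The script was tested on simulated data first. The precision is limited by the number of arrays.

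Donor numbers in the labels pair CO and untreated kidneys. The correlation of partner deviations from the group means was -0.201, 0.0706, 0.280, 0.569, 0.160, 0.347, 0.265 and 0.390 for donors 1 to 8. Numbers in the naive array file names recur in those of donor 4, so these kidneys may share an animal, which the tests ignore.

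The members, the 11 gene lists (181 entries, 113 measured at the brightest probe set) and the tests were chosen with earlier results of these data known. The genes named are, per list and comparison, at most 3 that passed, by size of change, or else the gene with the smallest p, and for each member gene the 5 genes most like it. Further list genes (POR, ABCC2, SLCO1A2, FTH1, FTL, MIOX, SLC46A1, HIF1A, FOS and single values of named genes in other comparisons) were named after their values were seen. Alternatives were quantile normalization, array weights, a filter at log2 3, the donor or file date as a block, a fit of only the groups compared, and each array left out. The list counts without the untreated 4 h array of donor 1 were added after the data were seen.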

Additional observations from a re-analysis of the deposited data

How the results depend on the processing

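For the 3 genes in 9 comparisons, 627 of 684 alternative values kept direction and side of the threshold, 31 lost the call, 10 gained it and 16 changed sign. The donor as a replicate block left every estimate for CO against untreated kidneys as it was and changed no call of a member, with limma adjusted p from 0.958 upward. With array weights, calls were gained for HMOX1 in untreated kidneys at 4 h (1.64 log2, limma adjusted p = 0.00748) and 24 h (1.21), for BLVRA in untreated kidneys at 4 h (-0.92) and 24 h (-0.90) and CO kidneys at 24 h (-0.94), and for HMOX2 in CO kidneys at 4 h (-0.64), all against naive. The weights also turned BLVRA for CO against untreated at 24 h (-0.042) and between the untreated times (0.026), and the HMOX2 difference between the CO effects (0.13). With file date as a block, HMOX2 lost its calls at -0.89 and -1.07 against naive in untreated and CO kidneys at 24 h, and at -0.60 and -0.62 between the times, and BLVRA turned to 0.44 between the untreated times. That block also moved BLVRA against naive at 24 h to -0.44 untreated and -0.23 with CO, and HMOX1 in CO kidneys at 24 h to 0.46. With only the groups compared, BLVRA gained a call in untreated kidneys at 24 h (-0.96) and lost it in CO kidneys at 4 h (-1.37), and HMOX2 lost it between the untreated times (-0.71). Quantile normalization ended the HMOX1 call in CO kidneys at 4 h (1.31, limma adjusted p = 0.0527). The cause was not tested for these changes.

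With 1 array left out in turn, values against naive ran from 0.99 to 1.88 for HMOX1 in untreated kidneys at 4 h, 0.67 to 1.56 in untreated at 24 h 0.92 to 1.81 in CO at 4 h and 0.36 to 1.25 in CO at 24 h. They ran from -1.10 to -0.94 for HMOX2 in untreated and -1.23 to -1.13 in CO kidneys at 24 h, and from -1.63 to -1.11 for BLVRA in CO kidneys at 4 h. HMOX1 in untreated kidneys at 24 h gained a call without untreated donor 1 (0.0279) or donor 7 (0.0494). Between the untreated times HMOX1 ran from -0.68 to -0.08. Between the times HMOX2 ran from -0.84 to -0.60 untreated and from -0.84 to -0.58 with CO. For CO against untreated, HMOX1 ran from -0.44 to 0.17 at 4 h and -0.54 to -0.12 at 24 h, and BLVRA from -0.86 to -0.34 and -0.017 to 0.25, and for the difference between the CO effects HMOX1 ran from -0.48 to 0.12 and HMOX2 from -0.13 to 0.13, none of them called. Over donor pairs, with 1 pair left out, means ran from -0.34 to -0.11 for HMOX1, -0.27 to -0.06 for HMOX2 and -0.31 to -0.05 for BLVRA.

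Counts over all probe sets moved more. The 361 called in untreated kidneys at 4 h became 614 with the level filter, 4760 with weights, 105 with the date block, 0 with only the groups compared and 2 to 3347 with 1 array left out, the highest without untreated donor 1. In untreated kidneys at 24 h, 3494 became 7744 with weights, 159 with the date block and 903 to 4197 with 1 array left out. In CO kidneys, 3254 at 4 h became 7037 with weights and 1 to 4146, and 2804 at 24 h became 6224, 0 with the date block and 459 to 3486. Between the times, 2332 untreated became 4978 with weights, 0 with the date block, 1462 with only the groups compared and 1320 to 2928, and 4226 with CO became 6934, 0 and 2720 to 4860. The donor block called 1 probe set for CO against untreated at 4 h. Other probe sets of the same gene could not be tried, since each member has 1.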
